A study of Mus musculus with 24 samples.

Results

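The 30 genes described here encode the enzymes of the tricarboxylic acid cycle and its neighbours: 16 enzymes or subunits of the cycle, 4 subunits and 5 regulators of pyruvate dehydrogenase, 2 mitochondrial malic enzymes and 3 carriers of the inner mitochondrial membrane. They were chosen by name, and all 30 were found among the 41388 genes in the files. The livers came from a factorial experiment of 4 groups, each labelled with 6 RNA libraries. Knockout mice, labelled LSALT2KO, had the gene of alanine transaminase 2 (Gpt2) deleted in the liver. Control mice were fl/fl, so that the controls carried the floxed allele. Each genotype was sampled after 18 h of fasting or with food ad libitum. The labels give neither the promoter behind the deletion nor the age of the mice, and do not tie libraries to separate animals: p-values here rest on the spread between libraries.

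The cycle burns acetyl-CoA inside mitochondria and passes the electrons to the respiratory chain. In a fasting liver it also serves as a crossroads: carbon from lactate and amino acids enters it, and oxaloacetate leaves towards glucose, while acetyl-CoA comes mainly from fat. Pyruvate dehydrogenase, which would turn pyruvate into acetyl-CoA, is held back by kinases in that state, and several steps of the cycle have a second enzyme in the cytosol.

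Used here were 22 libraries: 6 knockout fasted, 6 knockout fed, 5 control fasted and 5 control fed. The file of control fed replicate 6 was truncated, and the library labelled control fasted replicate 4 had a profile of kidney, with 123 Alb and 7041 Kap reads per M reads, against at least 44413 and at most 8.97 in the libraries used. The 22 libraries held 18.4 to 55.3 M reads assigned to genes. Levels below are reads of a gene per M reads (CPM) after scaling of library sizes by the trimmed mean of M values, a method that assumes that most genes do not differ between libraries. Gpt2 averaged 112 ± 36.3 CPM in knockout fasted livers and 697 ± 86.7 CPM in control fasted livers. Fed livers had 60.4 ± 11.3 CPM in the knockout and 370 ± 51.9 CPM in the control group (SD, n = 6 and 5 in each pair). Some Gpt2 RNA thus remained in every knockout library, at 52.1 to 148 CPM after fasting and 48.2 to 78.0 CPM with food. All 8 hepatocyte markers were present in every library. Only whole liver was sequenced, so fewer cells of a type and less RNA per cell cannot be told apart.

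Fasting changed 11 of the 30 genes when its effect was averaged over both genotypes, and the changes ran in both directions. Citrate synthase, the cytosolic enzymes Aco1, Idh1 and Mdh1, and the pyruvate dehydrogenase subunit Dlat fell, by 0.28 to 0.59 on the log2 scale. The 2-oxoglutarate dehydrogenase subunits Ogdh and Dlst, the succinyl-CoA ligase subunit Suclg1, the phosphatase subunit Pdpr and the carriers Slc25a10 and Slc25a12 rose, by 0.38 to 0.47 on the same scale. Deletion of Gpt2 changed none of the 30 past the threshold.

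In numbers, 6 genes rose and 5 fell in the averaged comparison, which is 36.7% of the 30, where 14.3% of all 16757 genes tested were called (7.08% higher and 7.26% lower). Called means that edgeR's quasi-likelihood test gave a p under 0.05 after Benjamini-Hochberg adjustment over all genes. Fold changes are on the log2 scale and stand with their SE. In knockout livers 5 rose and 3 fell with fasting, with a background of 6.13% of all genes (2.88% higher and 3.25% lower). In control livers 3 rose and 4 fell, with a background of 8.12% (3.99% higher and 4.13% lower). The median log2 fold change of the 30 genes was 0.11 in knockout and 0.02 in control livers, and that of all genes was 0.01 in knockout and 0.00 in control livers. Direction was shared by both genotypes for 28 of the 30 genes, among them all 11 that were called. The averaged test favours genes whose effects share a direction, so for the 11 this adds no support.

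By compartment, the 3 members whose product works in the cytosol all fell in the averaged comparison. Of the 27 mitochondrial ones 6 rose, 2 fell and 19 did not pass. Among all genes tested, 7.08% rose and 7.26% fell. These counts are a description of a chosen list and do not stand for cytosolic enzymes at large. Outside the list, the cytosolic Gpd1 rose by 0.94 ± 0.08 (edgeR adjusted p = 3.43e-11). The cytosolic Got1 and Me1, at 0.56 ± 0.22 and -0.10 ± 0.13, were not called. Of the cytosolic members, Mdh1 was not called in knockout livers (edgeR adjusted p = 0.371). Its averaged call was lost with the kidney-like library added (edgeR adjusted p = 0.0517) and with the title-number term described below (0.238).

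The averaged calls depended on how libraries were grouped in the fit. Sample titles carry numbers whose meaning the labels do not give, and these fall into 10 clusters of close numbers. With a term for those clusters, all 11 genes kept their direction and 4 stayed past the threshold, namely Aco1, Idh1, Dlst and Suclg1. That term leaves 9 residual degrees of freedom, where the fit without it has 18. The other 7 had adjusted p between 0.0682 and 0.419 in that edgeR fit. The fall of Cs moved most, to 0.20 in the averaged comparison. Within genotypes 5 of the 8 calls in knockout and 1 of the 7 in control livers remained, that of Idh1, and the calls lost had edgeR adjusted p of 0.115 to 0.24 in knockout and 0.241 to 0.553 in control livers. Of all genes, 5.96% were called on average with this term, 4.11% in knockout and 2.41% in control livers. With the kidney-like library added, 9 of the 11 averaged calls remained, 3 of the 8 in knockout and 4 of the 7 in control livers, where 8.97%, 2.22% and 4.72% of all genes were called.

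**Figure D1:**
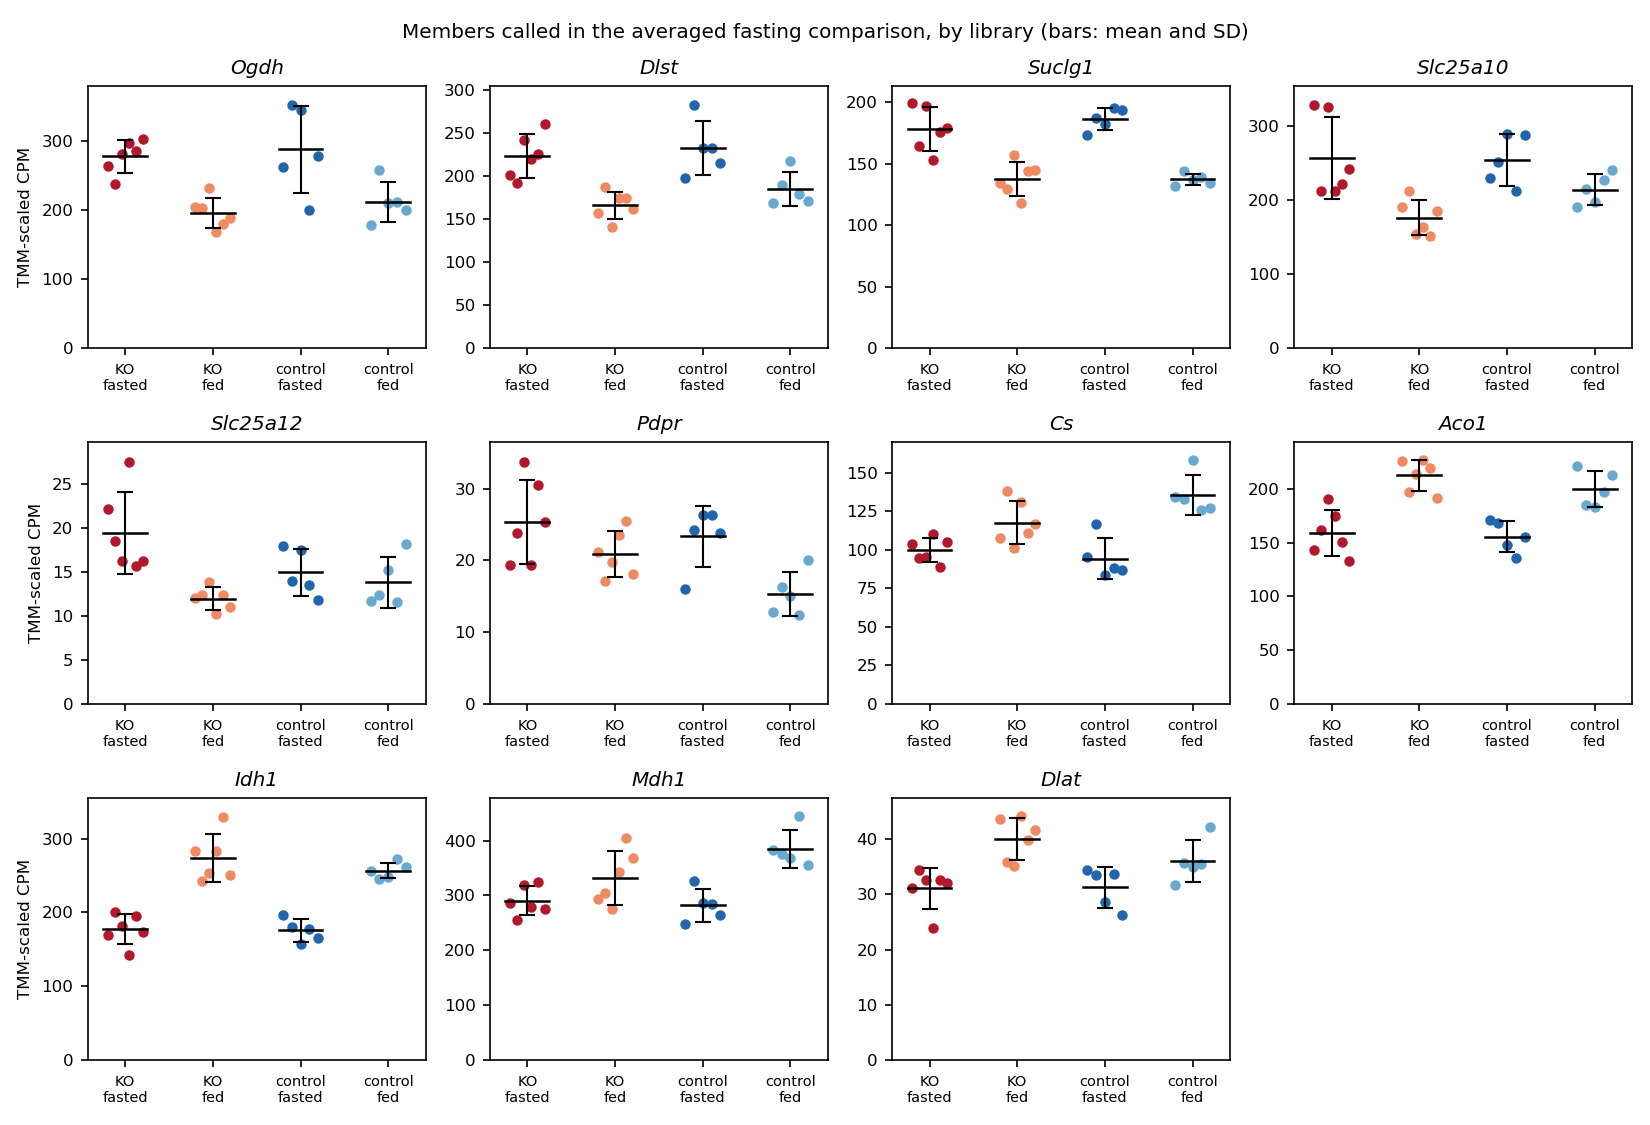
Level of the 11 genes called in the averaged fasting comparison, in TMM-scaled CPM on axes that start at 0. Each point is 1 library of the knockout (KO) fasted, knockout fed, control fasted or control fed group, and bars give mean and SD; Idh1 in fasted livers of both genotypes sits between 143 and 201 CPM, below all fed libraries at 243 to 329 CPM.

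The cycle opens with citrate synthase, encoded by Cs (chr10:128337832-128362479), which joins acetyl-CoA to oxaloacetate. Its level lay between 89.1 and 110 CPM in knockout fasted livers (median 100), against 101 to 138 CPM in knockout fed livers (median 114). Control fasted libraries had 83.7, 87.2, 88.4, 95.2 and 117 CPM, against 126, 127, 133, 134 and 158 CPM in control fed ones. The control groups did not overlap, whereas the knockout groups did. Cs fell by 0.52 ± 0.11 in control livers (edgeR adjusted p = 0.00182). In knockout livers the fold change was -0.24 ± 0.10 and did not pass (edgeR adjusted p = 0.211). Averaged over genotypes, Cs fell by 0.38 ± 0.08 (edgeR adjusted p = 0.000389). With the title-number term the fold change was -0.29 in control livers and -0.20 on average, and neither passed (edgeR adjusted p = 0.537 and 0.419).

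Aconitase, the next enzyme, has a cytosolic form that also acts as an iron-sensing RNA-binding protein. Its gene Aco1 (chr4:40143081-40198338) lay between 133 and 191 CPM in knockout fasted livers (median 157), against 192 to 227 CPM in knockout fed livers (median 216). In control livers it was at 136, 148, 155, 168 and 171 CPM after fasting, against 183, 185, 197, 213 and 221 CPM with food. Within each genotype every fasted library was below every fed one. The fall was 0.42 ± 0.10 in knockout (edgeR adjusted p = 0.00569) and 0.36 ± 0.11 in control livers (adjusted p = 0.0284). In control livers the call was lost without control fasted replicate 3, 5 or 6 or control fed replicate 1, 4 or 5, with edgeR adjusted p of 0.0502 to 0.0974, and without a filter on low counts (adjusted p = 0.0609).

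Isocitrate dehydrogenase comes in 3 kinds. Idh1 makes NADPH in the cytosol, Idh2 does so in mitochondria, and Idh3a, Idh3b and Idh3g build the NAD-linked enzyme of the cycle itself. Idh1 (chr1:65158616-65186500) had the smallest p of the 30 genes. It lay between 143 and 201 CPM in knockout fasted livers (median 177), against 243 to 329 CPM in knockout fed livers (median 268). Control fasted libraries were at 157, 166, 177, 181 and 197 CPM, against 246, 248, 256, 262 and 272 CPM in control fed libraries. No fasted library reached the lowest fed one in either genotype. Idh1 fell by 0.63 ± 0.10 in knockout (edgeR adjusted p = 3.14e-05) and by 0.55 ± 0.11 in control livers (adjusted p = 0.000612), which leaves 0.647 and 0.684 of the fed level. In knockout livers Idh2 averaged 107 ± 22.1 CPM after fasting and 106 ± 17.4 CPM with food (SD, n = 6 each). Its averaged fold change of 0.02 ± 0.09 did not pass, nor did those of Idh3a, Idh3b and Idh3g, at 0.25 ± 0.12, -0.13 ± 0.07 and 0.06 ± 0.07.

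2-Oxoglutarate dehydrogenase, the complex that follows, is built like pyruvate dehydrogenase and shares the subunit Dld with it. Ogdh (chr11:6291633-6356642) encodes its first enzyme. Its level lay between 238 and 303 CPM in knockout fasted livers (median 284), against 169 to 232 CPM in knockout fed livers (median 195). Control fasted libraries had 201, 263, 278, 346 and 353 CPM, against 179, 201, 210, 212 and 259 CPM in control fed ones. The knockout groups were apart, and in the control groups 1 fasted library lay within the fed range. Ogdh rose by 0.51 ± 0.12 in knockout (edgeR adjusted p = 0.00497) and by 0.44 ± 0.13 in control livers (adjusted p = 0.0262). The control call was lost without control fasted replicate 2 or 3 or control fed replicate 1, 3 or 5, with edgeR adjusted p of 0.0537 to 0.105, and in a fit of the control groups alone (adjusted p = 0.0514).

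Dlst (chr12:85110833-85134091) encodes the succinyltransferase core of the same complex. It lay between 192 and 261 CPM in knockout fasted livers (median 223), against 141 to 187 CPM in knockout fed livers (median 168). In control livers it was at 198, 215, 233, 233 and 283 CPM after fasting, against 169, 171, 179, 190 and 217 CPM with food. Only the knockout groups were apart. Dlst rose by 0.43 ± 0.10 in knockout livers (edgeR adjusted p = 0.00672), and by 0.38 ± 0.08 in the averaged comparison (adjusted p = 0.000474). In control livers its fold change of 0.33 ± 0.11 did not pass (edgeR adjusted p = 0.0719). Dld, the subunit shared by both complexes, had an averaged fold change of -0.06 ± 0.08, so it did not follow Ogdh and Dlst past the threshold.

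Promoter sequence was examined for the genes of the list, of which 6 rose and 5 fell in the averaged fasting comparison. RefSeq windows from 250 bases before to 50 after a transcription start (build GRCm38.p6) were found for 28 of the 30 genes, 36 windows in all. The cAMP response element TGACGTCA, which reads the same on both strands, occurred in windows of 3 of the 28 genes, Ogdh, Pdpr and Mdh2, and in windows of 2.03% of all 27025 genes with one. The 3 windows of Ogdh overlap and hold 1 and the same match, so that the 5 member windows with these letters stand for 3 places in the genome (1.79% of all 32851 windows held them). Ogdh and Pdpr were called higher in the averaged fasting comparison and Mdh2 was not called. The motifs were chosen after the values were seen, and a match of letters is not a site. The 250 bases before the start are shown, with the match in capitals, for the first of the Ogdh starts (chr11:6291347-6291596, + strand), for Pdpr (chr8:111094495-111094744, + strand) and for Mdh2 (chr5:135778399-135778648, + strand). The deposited files place the starts of Pdpr and Mdh2 inside these stretches.
Ogdh: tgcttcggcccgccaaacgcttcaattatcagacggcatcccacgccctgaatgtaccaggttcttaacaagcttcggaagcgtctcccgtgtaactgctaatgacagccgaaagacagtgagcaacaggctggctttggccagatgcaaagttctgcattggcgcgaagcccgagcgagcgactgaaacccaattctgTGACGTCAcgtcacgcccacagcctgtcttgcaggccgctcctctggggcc
Pdpr: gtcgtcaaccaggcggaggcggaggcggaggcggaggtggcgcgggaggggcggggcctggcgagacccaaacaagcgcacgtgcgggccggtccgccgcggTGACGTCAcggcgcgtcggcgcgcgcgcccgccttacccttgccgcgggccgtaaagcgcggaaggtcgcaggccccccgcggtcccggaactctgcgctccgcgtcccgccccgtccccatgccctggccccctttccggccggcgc
Mdh2: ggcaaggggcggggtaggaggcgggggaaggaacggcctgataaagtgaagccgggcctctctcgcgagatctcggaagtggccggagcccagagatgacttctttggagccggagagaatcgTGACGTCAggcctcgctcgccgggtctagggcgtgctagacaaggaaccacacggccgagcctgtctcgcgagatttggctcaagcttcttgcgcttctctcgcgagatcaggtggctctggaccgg
In Ogdh the match begins 51 bases before the RefSeq start, in Pdpr 148 and in Mdh2 127 bases before it. By the deposited start of Mdh2 (chr5:135778480), the match at chr5:135778522 lies after the start, inside the gene. The E-box CACGTG stood in windows of 4 of the 28 genes, Ogdh, Pdpr, Pdk2 and Pdp2, and of 8.09% of all genes. Counted by window, it was in 6 of the 36 and in 7.15% of all windows. The letters TCAAGGTCA (in 0.423% of all windows) and TGTTTAC (3.65%), searched on both strands, were in none of the 36 windows, and neither were the NRF1 element (0.971%) or a direct repeat bound by nuclear receptors (0.0396%).

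Succinyl-CoA ligase pairs the common subunit Suclg1 with a partner that sets the nucleotide it makes, Suclg2 for GTP and Sucla2 for ATP. Suclg1 (chr6:73248382-73276911) lay between 153 and 199 CPM in knockout fasted livers (median 178), against 118 to 157 CPM in knockout fed livers (median 139). Control fasted libraries were at 173, 182, 187, 194 and 195 CPM, against 132, 134, 137, 139 and 144 CPM in control fed libraries. The control groups were far apart, and the knockout groups overlapped by 1 library on each side. The rise was 0.37 ± 0.09 in knockout (edgeR adjusted p = 0.00898) and 0.44 ± 0.10 in control livers (adjusted p = 0.00344). Its partners did not pass, with averaged fold changes of -0.16 ± 0.08 for Suclg2 and 0.09 ± 0.07 for Sucla2.

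Fumarase and malate dehydrogenase close the cycle. Fh1, the fumarase gene, had an averaged fold change of 0.23 ± 0.08 that missed the threshold (edgeR adjusted p = 0.0551). Mdh1 (chr11:21556787-21572367) encodes the cytosolic malate dehydrogenase, which works in the malate-aspartate shuttle and in glucose synthesis. It lay between 256 and 324 CPM in knockout fasted livers (median 283), against 276 to 405 CPM in knockout fed livers (median 323). Control fasted libraries had 248, 264, 285, 286 and 327 CPM, against 355, 369, 375, 382 and 445 CPM in control fed ones. The knockout groups overlapped widely and the control groups did not. Mdh1 fell by 0.45 ± 0.11 in control livers (edgeR adjusted p = 0.00777), and its fold change of -0.19 ± 0.10 in knockout livers did not pass (adjusted p = 0.371). The averaged fall of 0.32 ± 0.08 (edgeR adjusted p = 0.00256) ended with the kidney-like library added (adjusted p = 0.0517). The mitochondrial Mdh2 had an averaged fold change of 0.08 ± 0.08 and was not called.

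Ratios within a library, which carry no library scaling, were compared for 3 pairs of enzymes or subunits by exact two-sided permutation tests, adjusted over 12 tests. Idh2 over Idh1, in reads per kilobase, was 0.506, 0.548, 0.576, 0.660, 0.761 and 0.838 in knockout fasted livers, against 0.311, 0.361, 0.370, 0.425, 0.474 and 0.564 in knockout fed livers. In control livers it was 0.594, 0.617, 0.712, 0.776 and 0.825 after fasting, against 0.441, 0.465, 0.471, 0.472 and 0.489 with food. The ratio between the RNAs of the mitochondrial and the cytosolic NADPH-making enzyme was thus higher after fasting. The groups did not overlap in control livers and did in knockout livers. Idh2 itself had fold changes of 0.02 ± 0.12 in knockout and 0.03 ± 0.13 in control livers. The ratio therefore mostly repeats the fall of Idh1 in the same libraries and is no separate support for it. The difference was 0.64 on the log2 scale in knockout (exact permutation p = 0.00649, adjusted 0.0238) and 0.58 in control livers (exact permutation p = 0.00794, adjusted 0.0238). The control value is the smallest p that 5 against 5 libraries allow.

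Mdh2 over Mdh1 lay between 0.625 and 0.832 in control fasted livers, against 0.388 to 0.609 in control fed livers, without overlap. That log2 difference of 0.48 had the same exact permutation p of 0.00794 (adjusted 0.0238). Mdh2 itself had a fold change of 0.03 ± 0.12 in control livers, so this ratio mostly repeats the fall of Mdh1. In knockout livers the ratio lay between 0.486 and 0.855 after fasting and between 0.382 and 0.654 with food, a log2 difference of 0.31 (exact permutation p = 0.0974, adjusted 0.167). Without knockout fasted replicate 5 the difference was 0.41, with an adjusted exact permutation p of 0.0208. Suclg2 over Sucla2, the RNA ratio of the GTP to the ATP form, was 2.16 to 2.71 in control fasted livers, against 2.72 to 3.11 in control fed livers. The fall in control livers was 0.22 (exact permutation p = 0.00794, adjusted 0.0238). In knockout livers the ratio was 2.01 to 3.34 after fasting and 2.92 to 3.82 with food, a log2 difference of -0.31 that did not pass (exact permutation p = 0.0476, adjusted 0.0952).

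**Figure D2:**
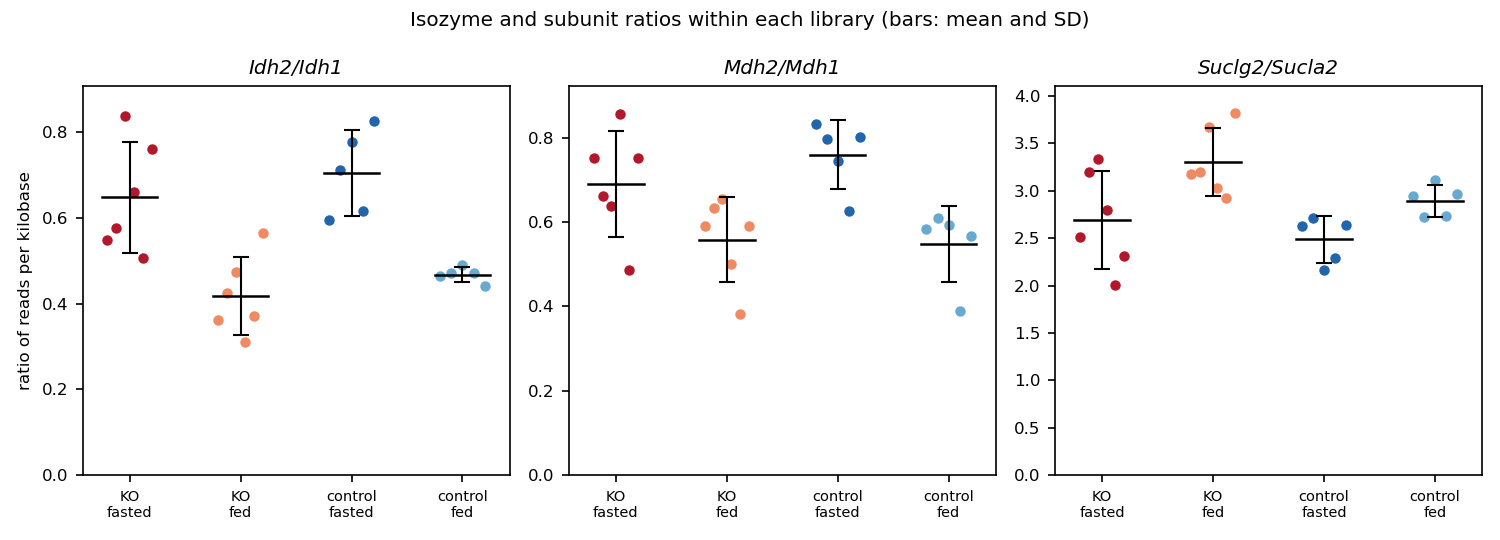
Ratio of reads per kilobase between 2 genes of the same step in each library, on axes that start at 0, for the knockout (KO) fasted, knockout fed, control fasted and control fed groups. Bars give mean and SD; Idh2 over Idh1 lies between 0.594 and 0.825 in control fasted libraries and between 0.441 and 0.489 in control fed ones.

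Pyruvate dehydrogenase is represented by the catalytic subunits Pdha1 and Pdhb, the acetyltransferase Dlat, the tethering protein Pdhx and the shared Dld. Dlat (chr9:50634633-50659780) was the subunit called. It lay between 23.9 and 34.5 CPM in knockout fasted livers (median 32.3), against 35.1 to 44.2 CPM in knockout fed livers (median 40.8). Control fasted libraries were at 26.2, 28.6, 33.6, 33.7 and 34.4 CPM, against 31.7, 34.9, 35.6, 35.7 and 42.3 CPM in control fed libraries. The knockout groups were apart by less than 1 CPM, and the control groups overlapped. Dlat fell by 0.36 ± 0.11 in knockout livers (edgeR adjusted p = 0.0453), and its fold change of -0.20 ± 0.12 in control livers did not pass (adjusted p = 0.396). The knockout call lay close to the threshold. It held in 6 of the 22 fits that leave out 1 library each, those without knockout fasted replicate 2, knockout fed replicate 2 or 3, control fasted replicate 5 or 6, or control fed replicate 5. In the other 16 the edgeR adjusted p was 0.0511 to 0.143. The knockout call was also lost without a filter on low counts (edgeR adjusted p = 0.115), in a fit of the knockout groups alone (0.0549) and with limma voom (0.0546). The averaged fall of 0.28 ± 0.08 passed in all 22 such fits (edgeR adjusted p = 0.0168 with all libraries), and ended with the kidney-like library added, at a fold change of -0.14 (adjusted p = 0.573). Pdha1, Pdhb and Pdhx had averaged fold changes of 0.08 ± 0.08, -0.12 ± 0.09 and 0.23 ± 0.11 and were not called.

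Regulators of the complex are the inhibiting kinases Pdk1, Pdk2 and Pdk3, the activating phosphatase Pdp2, and Pdpr, the regulatory subunit that restrains the phosphatase. Pdpr (chr8:111094630-111137074) lay between 19.4 and 33.7 CPM in knockout fasted livers (median 24.6), against 17.1 to 25.5 CPM in knockout fed livers (median 20.5). In control livers it was at 16.0, 23.9, 24.3, 26.3 and 26.3 CPM after fasting, against 12.4, 12.8, 15.1, 16.3 and 20.1 CPM with food. The control groups overlapped through 1 low fasted library, replicate 1. Pdpr rose by 0.61 ± 0.17 in control livers (edgeR adjusted p = 0.0233), while its fold change of 0.28 ± 0.16 in knockout livers did not pass (adjusted p = 0.409). Its control call was lost without control fasted replicate 3 or 5 or control fed replicate 1 or 4, with edgeR adjusted p of 0.0608 to 0.0677, and limma voom did not call it (adjusted p = 0.101). The kinases and Pdp2 were not called. Pdk1 and Pdk2 had averaged fold changes of 0.21 ± 0.10 and -0.22 ± 0.10, and Pdp2 had -0.22 ± 0.13. Pdk3 was at 0 to 1.36 CPM in all 22 libraries, too low for a comparison.

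The malic enzymes Me2 and Me3, which turn malate into pyruvate inside mitochondria, were also scarce. Me2 ranged from 0.178 to 4.52 CPM and Me3 from 0 to 0.702 CPM over the 22 libraries, and neither was called.

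Of the carriers, Slc25a10 exchanges malate and succinate for phosphate, Slc25a11 exchanges malate for 2-oxoglutarate, and Slc25a12 exports aspartate in exchange for glutamate. Slc25a10 (chr11:120491840-120499187) lay between 212 and 328 CPM in knockout fasted livers (median 232), against 151 to 212 CPM in knockout fed livers (median 174). Control fasted libraries had 212, 229, 251, 288 and 289 CPM, against 190, 197, 214, 227 and 240 CPM in control fed ones. The knockout groups met at 212 CPM and the control groups overlapped. Slc25a10 rose by 0.55 ± 0.12 in knockout livers (edgeR adjusted p = 0.00316), and its fold change of 0.25 ± 0.13 in control livers did not pass (adjusted p = 0.307).

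Slc25a12 (chr2:71271063-71367749), the aspartate carrier that is minor in liver, had the largest fold change of a called gene in either genotype. It lay between 15.7 and 27.5 CPM in knockout fasted livers (median 17.4), against 10.2 to 13.9 CPM in knockout fed livers (median 12.2). In control livers it was at 11.8, 13.5, 14, 17.5 and 18.0 CPM after fasting, against 11.6, 11.7, 12.4, 15.2 and 18.2 CPM with food. Fasted knockout libraries all exceeded the fed ones, and the control groups overlapped throughout. Its rise in knockout livers was 0.70 ± 0.16 (edgeR adjusted p = 0.00507), and its fold change in control livers was 0.12 ± 0.18 (adjusted p = 0.821). The difference between these effects did not pass its own test (0.58 ± 0.24, edgeR adjusted p = 0.997). Its averaged rise of 0.41 ± 0.12 (edgeR adjusted p = 0.018) was 0.65 with the kidney-like library added. Slc25a11 had an averaged fold change of -0.06 ± 0.08 and was not called.

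**Figure D3:**
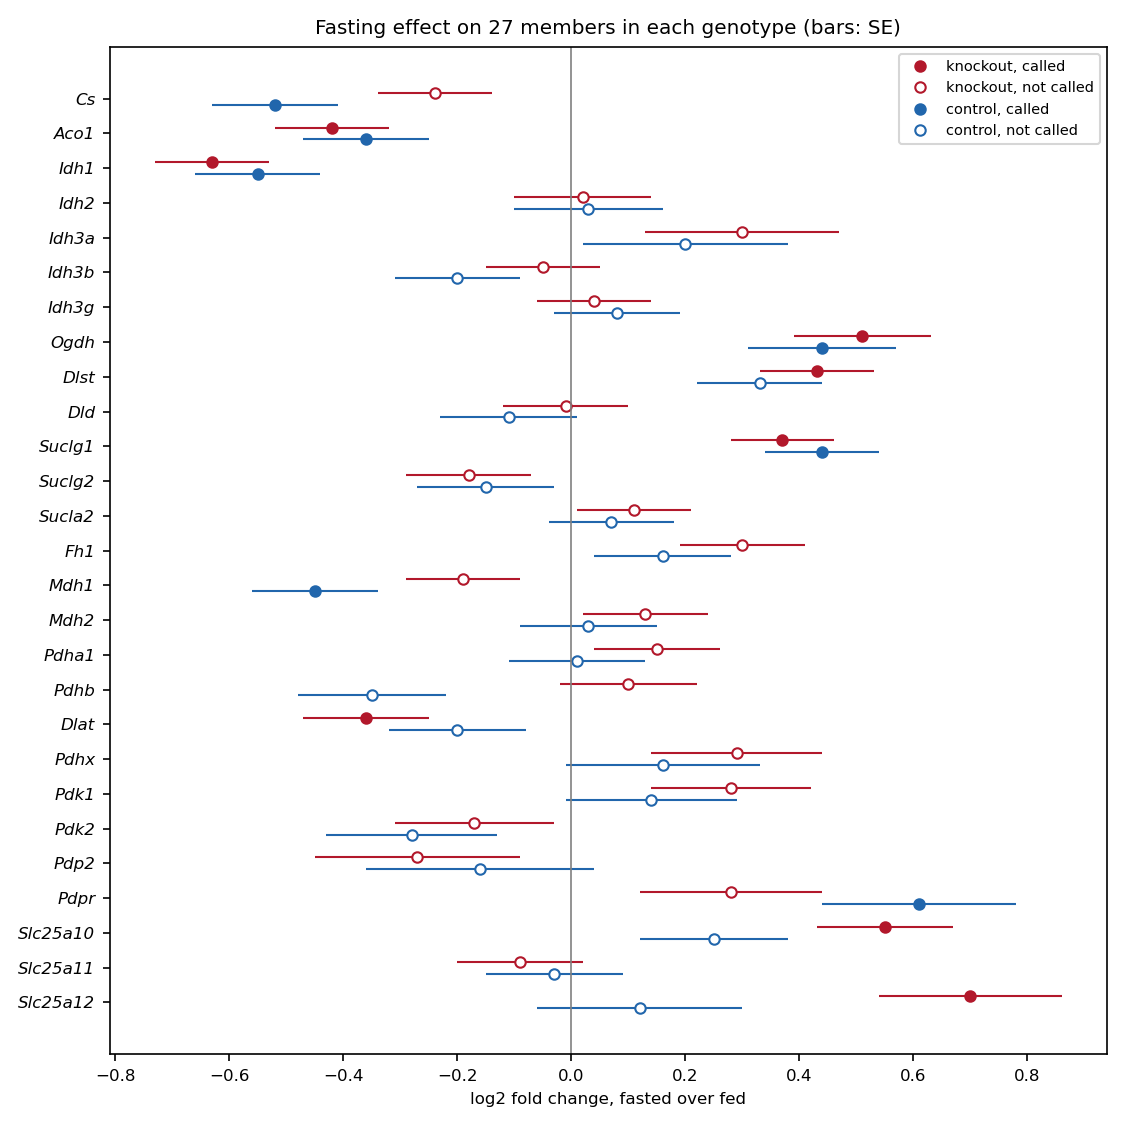
Log2 fold change of fasted over fed livers with its SE for the 27 genes with a mean of at least 10 CPM, in knockout and control livers. Filled points are called and open points are not; Cs, Aco1, Idh1, Mdh1 and Dlat lie left of 0 and Ogdh, Dlst, Suclg1, Pdpr, Slc25a10 and Slc25a12 right of it in both genotypes.

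Across the 30 genes, the same 4 were called in both genotypes: Aco1, Idh1, Ogdh and Suclg1. Dlst, Dlat, Slc25a10 and Slc25a12 were called in knockout livers and not in control livers, and Cs, Mdh1 and Pdpr in control livers and not in knockout livers. None of these differences between genotypes passed the test of the interaction, so they are not shown to differ. CPM ranges of fasted and fed libraries were apart for 7 of the 30 genes in knockout livers, where 3.96% of all genes were, and for 5 in control livers, where 7.91% were.

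Levels per length differed widely between subunits of 1 complex, and their order rests on the deposited length of each gene. By mean CPM, Ogdh (243) stood above Dlst (201), Pdha1 (75.5) above Pdhb (59.4) and Suclg1 (160) above Suclg2 (141). These pairs stand the other way round per length. The Idh3 subunits and the kinases had the same order in both measures. In CPM per kilobase (RPKM, over 22 libraries), Dlst had 72.7 ± 12.9, Ogdh 44.6 ± 9.82 and Dld 30.3 ± 3.85. Among pyruvate dehydrogenase subunits Pdhb had 40.0 ± 6.62 RPKM, Pdha1 20.2 ± 2.45 RPKM, Dlat 7.11 ± 1.07 RPKM and Pdhx 5.38 ± 1.02 RPKM. Dlat and Pdhx, the core and its tether, had the lowest RNA levels of that complex per length, and also by mean CPM (34.7 and 21.2). Their RPKM ranges over libraries overlapped. In the NAD-linked isocitrate dehydrogenase, Idh3b had 46.2 ± 5.23 RPKM, Idh3g 23.4 ± 2.04 RPKM and Idh3a, the catalytic subunit, 9.01 ± 2.03 RPKM. Suclg2 had 61.9 ± 8.74 RPKM, Suclg1 34.6 ± 5.57 RPKM and Sucla2 21.8 ± 2.25 RPKM. Pdk2 was the most abundant of the 3 kinases at 39.2 ± 7.04 RPKM, with Pdk1 at 9.13 ± 2.00 RPKM and Pdk3 at 0.114 ± 0.144 RPKM (all SD, n = 22).

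**Figure D4:**
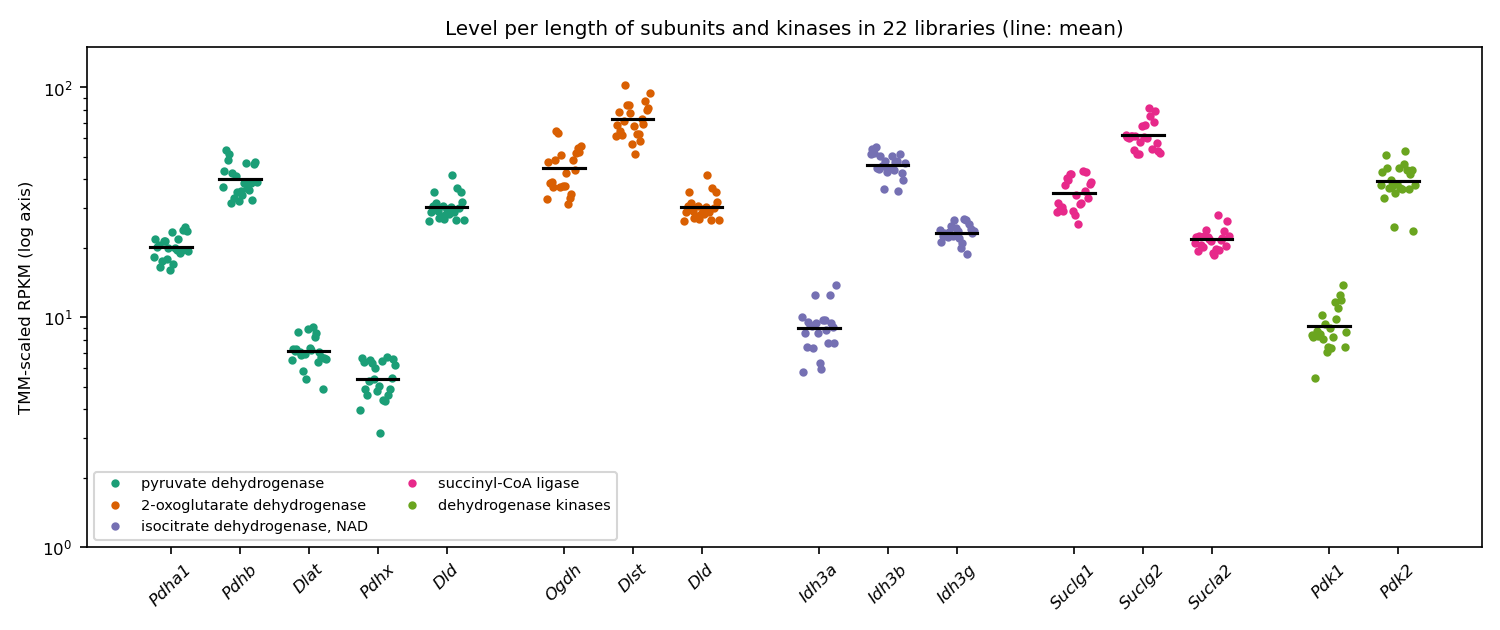
Level per length, in TMM-scaled RPKM on a log axis, of subunits of 4 enzyme complexes and of the kinases Pdk1 and Pdk2 in each of 22 libraries, with the mean as a line. Dlst, Suclg2, Idh3b, Ogdh and Pdhb lie highest, and Pdhx, Dlat, Idh3a and Pdk1 lowest.

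Within a group the 27 genes with a mean of at least 10 CPM varied little, with a coefficient of variation of 7.11% to 24.2% (median 11.7%, mean over the 4 groups). Suclg1 was the steadiest at 7.11% and Pdp2 the most variable at 24.2%. Me2, Me3 and Pdk3 had 66.0% to 130%.

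Deletion of Gpt2 left all 30 genes uncalled in fasted livers, in fed livers, in their average and in the interaction with fasting. The background was as sparse: of all genes 0.00597% were called in fasted livers, 0.00597% in fed livers, 0.0358% on average and 0.00597% in the interaction. At an unadjusted p under 0.05 edgeR found 2, 3, 3 and 2 of the 30 in that order, where 4.01%, 9.01%, 8.71% and 4.69% of all genes had such a p. The 30 genes thus held about as many as the background gives. DESeq2 found 2, 4, 2 and 2 and limma voom 2, 5, 3 and 2, and both other tools called none. No gene of the 30 had CPM ranges apart between genotypes, where 0.489% of all genes did in fasted and 1.18% in fed livers.

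For the 27 genes with at least 10 CPM, log2 fold changes of knockout over control lay between -0.19 and 0.38 in fasted livers and between -0.33 and 0.44 in fed livers, with SE of 0.10 to 0.19 in both. A p that misses the threshold does not show equal levels. The smallest p in fasted livers belonged to Pdk1 and Slc25a12. Pdk1 lay between 57.7 and 107 CPM in knockout fasted livers (median 88.9), and control fasted libraries had 55.0, 62.8, 65.6, 73.0 and 79.4 CPM. The groups overlapped, and the fold change of 0.33 ± 0.15 did not pass (edgeR adjusted p = 1, unadjusted 0.0322). For Slc25a12, whose values are given above, it was 0.38 ± 0.17 (edgeR adjusted p = 1, unadjusted 0.0342).

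In fed livers the smallest p were those of Pdhb and Pdpr. Pdhb lay between 47.7 and 69.7 CPM in knockout fed livers (median 53.7), and control fed libraries had 54.7, 64.4, 72.0, 76.6 and 79.5 CPM. In the knockout fed group 4 of 6 libraries were below every control fed one, and the fold change of -0.33 ± 0.12 did not pass (edgeR adjusted p = 0.409, unadjusted 0.0125). Pdpr had 0.44 ± 0.17 in fed livers (edgeR adjusted p = 0.409, unadjusted 0.0127). Averaged over feeding, the smallest p were those of Pdk1, at 0.26 ± 0.10 (edgeR adjusted p = 0.459), and Pdpr, at 0.28 ± 0.12 (adjusted p = 0.49). In the interaction they were those of Pdhb, at 0.45 ± 0.18, and Slc25a12, at 0.58 ± 0.24 (edgeR adjusted p = 0.997 for both). None of the 6 ratio tests between genotypes passed; the smallest adjusted exact permutation p was 0.0727, for Suclg2 over Sucla2 in fed livers, with a log2 difference of 0.19.

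**Figure D5:**
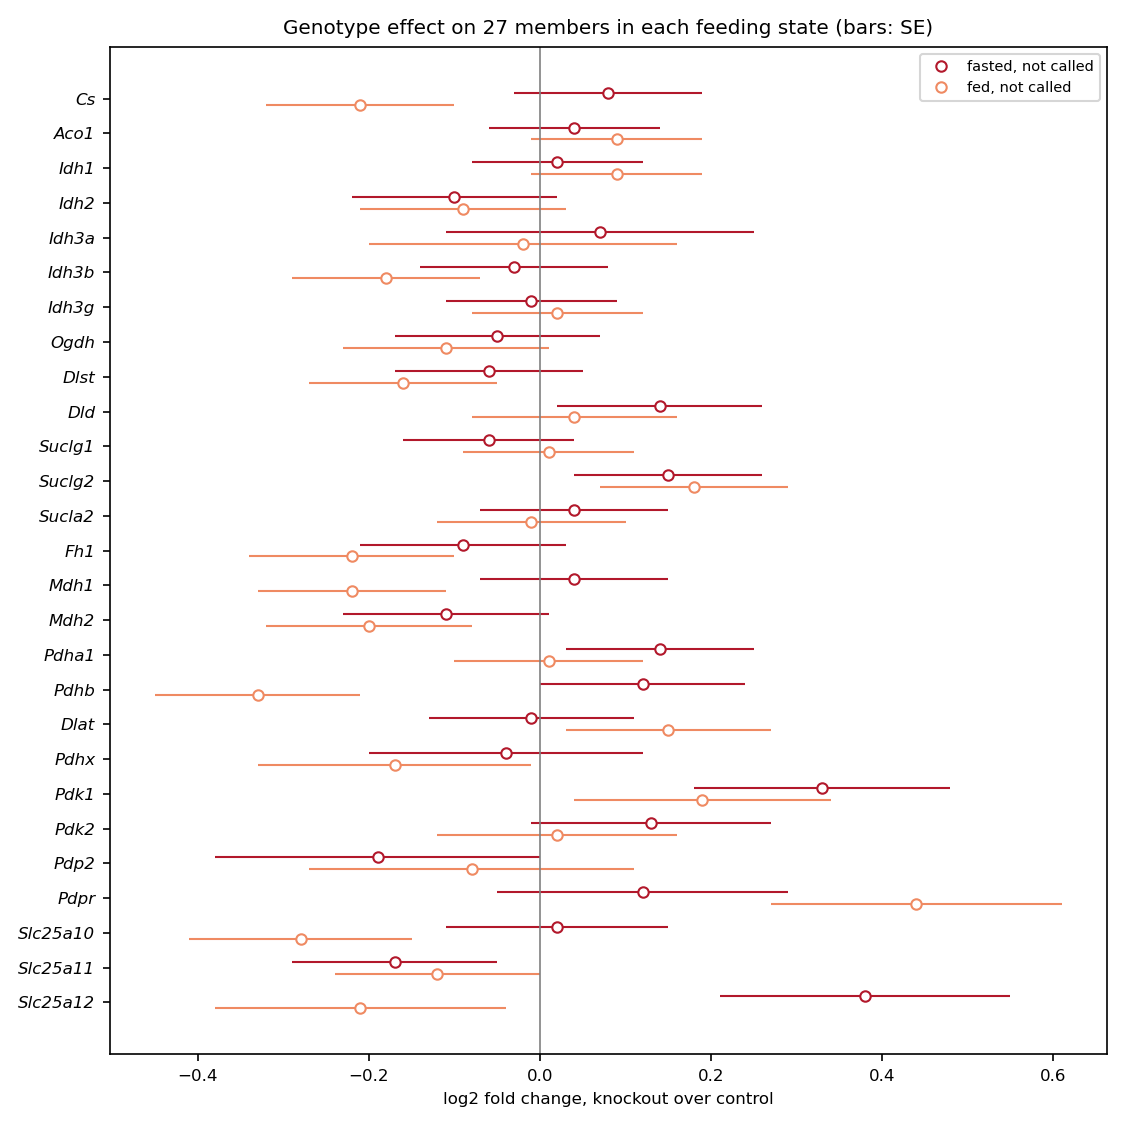
Log2 fold change of knockout over control livers with its SE for the 27 genes with a mean of at least 10 CPM, in fasted and fed livers. All points are open because none was called; they lie between -0.33 and 0.44.

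Other genes of the pathway also moved with fasting. Of 24 further genes tested, 9 rose and 4 fell in the averaged comparison, which is 54.2%, where 14.3% of all genes were called. Pcx, pyruvate carboxylase, which feeds oxaloacetate into the cycle, averaged 1019 ± 167 CPM after fasting and 564 ± 60.9 CPM with food in knockout livers (SD, n = 6 each), and rose by 0.85 ± 0.10 (edgeR adjusted p = 2.98e-08). Slc25a13, the main aspartate carrier of liver, rose by 0.62 ± 0.07 (adjusted p = 1.54e-08), and the glutamate carrier Slc25a22 by 0.94 ± 0.11 (adjusted p = 9.15e-08, both edgeR). Gpd1, the cytosolic enzyme of the glycerol phosphate shuttle, rose by 0.94 ± 0.08 (edgeR adjusted p = 3.43e-11). The citrate carrier Slc25a1, which exports citrate for fat synthesis, fell by 0.70 ± 0.08 (edgeR adjusted p = 1.74e-08). With the kidney-like library added, Slc25a13 and Slc25a22 lost their calls within each genotype, with edgeR adjusted p of 0.192 to 0.288. The kinase gene Pdk4, a known fasting gene, had a fold change of 1.09 ± 0.45 that did not pass (edgeR adjusted p = 0.126), and 1 knockout fasted library stood at 85.8 CPM.

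Mitochondrial genes as a whole did not share 1 direction. Of 18 genes of fatty acid oxidation, 14 rose and 1 fell in the averaged comparison, with a median log2 fold change of 0.91. Of 85 genes of the respiratory chain none rose and 3 fell (median -0.03), and of 76 genes of the mitochondrial ribosome 2 rose and 6 fell (median -0.09). The shares called were 83.3%, 3.53% and 10.5% in that order, where 14.3% of all genes were called. The 30 genes had a median of 0.04.

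Marker genes of hepatocytes and of other cell types were examined beside these results. Of the 8 hepatocyte markers 4 were called in the averaged fasting comparison, 3 higher and 1 lower (Hnf4a, Pck1, Apoa1 and Ttr). The summed hepatocyte levels overlapped, at 79433 to 155308 CPM in fasted and 74243 to 131281 CPM in fed livers. The summed level of 4 adipocyte markers was 7.25 to 36.9 CPM in fasted livers, against 0.796 to 5.57 CPM in fed livers, and was carried by Cidec, the 1 marker tested and called higher. Of the other 3, Adipoq was at 0 in 9 of the 22 libraries and reached 0.105 CPM in fasted and 1.29 CPM in fed livers, Plin1 was at 0 in 18 and Lep in 20. Of 5 exocrine pancreas markers the sum was 3.43 to 8.48 CPM in fasted and 11.7 to 37.7 CPM in fed livers, carried by Cela1, which was called lower, with Pnlip at 0 in all 22. Of 6 stellate cell markers 3 fell, with overlapping sums of 63.6 to 133 CPM in fasted and 106 to 159 CPM in fed livers. Of 5 cholangiocyte markers Spp1 and Krt19 fell, with overlapping sums of 17.7 to 35.2 CPM in fasted and 25.2 to 60.1 CPM in fed livers. Of 6 endothelial markers Stab2 rose, and of 5 erythroid markers Alas2 fell, with overlapping sums in both lists. None of the Kupffer cell, lymphocyte, kidney tubule and skeletal muscle markers tested was called. Their part in the changes of the 30 genes was not tested.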

How the data were processed

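Each deposited file lists 41388 Ensembl genes (GRCm38) with a length and read counts, which the authors made with STAR 2.5.1a and featureCounts 1.4.6-p5, per the submitters' processing notes. RNA was selected with oligo-dT, per the labels' protocols. Deposited CPM and RPKM values, per the file headers, were not used in tests. Counting by strand and the annotation release: not given in the sources used here. Reads of overlapping genes and close copies are therefore uncertain. Symbols came from GENCODE M21 (97.3% of genes).

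The deposited counts of 22 libraries entered 1 fit of 4 groups in edgeR 4.0.16 (R 4.3.3): TMM factors, filterByExpr (minimum count 10, total 15), robust quasi-likelihood test, Benjamini-Hochberg adjustment over 16757 genes, threshold 0.05. All 30 genes passed the filter. Standard errors are the log2 fold change divided by the root of F. Levels were expressed as CPM scaled by TMM, and as RPKM by dividing these by the deposited length. Ratios were tested with SciPy 1.17.1. Alternatives were other scalings and filters, DESeq2 1.42.0, limma 3.58.1 voom, the groups compared alone, title-number clusters as a term, 23 libraries, and each of the 22 libraries left out. For genes called in a fasting comparison, control libraries were given singly and knockout groups by range and median. For the 2 smallest p between genotypes in fasted and in fed livers, this was done for the groups compared. Both procedures were tested on simulated data. The 30 genes, the lists and the tests were chosen with earlier results of these data known.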

Additional observations from a re-analysis of the deposited data

Results flagged for a closer look

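In 8 of 120 combinations of gene and group, the highest or lowest library lay far from the rest of its group by Dixon's test, and chance flags about 1 in 20, or 6. Control fed replicate 3 appeared in 2 of them: Cs was at 158 CPM there, with the others at 126 to 134 CPM, and Pdk1 at 42.4 CPM, with the others at 63.9 to 67.8 CPM. Knockout fed replicate 5 also appeared in 2, with Dld at 93.5 CPM (others 63.2 to 68.0 CPM) and Sucla2 at 112 CPM (others 74.2 to 85.5 CPM). Dlat was at 23.9 CPM in knockout fasted replicate 4 (others 31.1 to 34.5 CPM). Pdpr was at 16.0 CPM in control fasted replicate 1 (others 23.9 to 26.3 CPM). The scarce Me2 was at 4.52 CPM in knockout fasted replicate 5 (others 1.01 to 2.23 CPM), and Pdk3 at 0.292 CPM in control fasted replicate 3 (others 0 to 0.0537 CPM).

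In the kidney-like library labelled control fasted replicate 4, which was left out of the 22 libraries and added back only as an alternative, 27 of the 30 genes were above the highest of the 5 control fasted libraries used, in unscaled reads per M reads, and the other 3, Fh1, Pdhx and Pdk1, lay within their range. Me3 had 42.7 and Pdk3 28.6 reads per M reads there, against at most 0.621 and 0.305 in those 5 libraries. Pdha1 had 378 reads per M reads, against 57.8 to 83.8 in them.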

How the results depend on the processing

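Over all alternatives, no member named as called changed direction. With title-number clusters as a term, fasting called 5 of the 30 in knockout and 1 in control livers and 4 on average, and of all genes 688 in knockout livers, 404 in control livers and 998 on average. With 23 libraries it called 3 in knockout and 4 in control livers, and of all genes 379 in knockout livers, 805 in control livers and 1529 on average. Library totals as scaling gave 357 genes higher and 617 lower with fasting in knockout livers, against 483 and 545 with TMM factors, and ended the knockout calls of Dlst (edgeR adjusted p = 0.0602) and Suclg1 (0.071).

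Counts of all genes called between genotypes were small and varied. In fed livers the count of 1 became 5 with library totals, 14 without the filter, 68 with DESeq2, 2 without mitochondrial and the 20 most abundant genes, 3 with title-number clusters and 0 with 23 libraries. In fasted livers the count of 1 became 3 with DESeq2 and 0 with 23 libraries. On average, 6 became 12 with library totals, 12 without the filter, 3 at a mean CPM of at least 1, 37 with DESeq2, 1 with title-number clusters and 1 with 23 libraries. For the interaction, 1 became 6 with DESeq2 and 0 with 23 libraries. None of these fits called any of the 30. The cause of these moves was not tested.

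Compared by medians, the ratio differences with fasting were 0.64 for Idh2 over Idh1 in knockout livers, and in control livers 0.60 for Idh2 over Idh1, 0.45 for Mdh2 over Mdh1 and -0.17 for Suclg2 over Sucla2, all at an adjusted exact permutation p of 0.143. With 23 libraries Suclg2 over Sucla2 was at -0.13 (adjusted exact permutation p = 0.398).

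Leaving out 1 library at a time, fasting called 7 to 9 of the 30 in knockout livers, 4 to 8 in control livers (4 without control fasted replicate 3) and 11 or 12 on average, and of all genes 849 to 1075 in knockout livers, 1088 to 1434 in control livers and 2193 to 2458 on average. Between genotypes all-gene counts ran over 1 to 13 in fed livers, 3 to 15 on average and 0 to 1 for the interaction. The ratio Mdh2 over Mdh1 ran over 0.20 to 0.41 for fasting in knockout livers and over -0.10 to 0.13 between genotypes in fed livers, negative without control fed replicate 4 (-0.10) or knockout fed replicate 2 (-0.02) or 3 (-0.03). Suclg2 over Sucla2 between genotypes in fed livers ran over 0.14 to 0.22, and passed without knockout fed replicate 5 (adjusted exact permutation p = 0.0381).

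The labels give no replicate numbers that groups share, so the clusters of close title numbers, whose meaning is not given, were the only block fitted, with the counts given above. Low counts limit Me2, Me3 and Pdk3, at under 10 CPM on average.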
